A study of Mus musculus with 6 samples.

Results

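The 8 genes described here, Ighm, Ighd, Igkc, Jchain, Cd79a, Cd79b, Ms4a1 and Blk, are markers of B cells and antibody-secreting cells, out of 54532 genes in an RNA sequencing table of mouse hearts. All 8 symbols matched 1 Ensembl identifier each in GENCODE mouse release M21. The genes were selected on their FPKM in these same libraries, so their differences between groups are given as a description, with no test. The comparison asks whether B cell transcripts differed between HFpEF and control hearts, and whether the B cell surface genes followed the immunoglobulin genes from mouse to mouse.

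Left ventricular myocardium came from male C57BL/6 mice that were 6 to 8 weeks old at the start. The HFpEF mice (n = 3) received 12 weeks of a high-fat diet, in which fat gave 60% of kcal, with 0.5 g/L L-NAME, which blocks nitric oxide synthase, in their drinking water. Chow mice (n = 3) received standard chow and regular water for the same time. Each library came from 1 mouse, and libraries are named Chow 1 to Chow 3 and HFpEF 1 to HFpEF 3 after the replicate numbers of the labels. Diet and L-NAME were always given together, so their contributions cannot be told apart.

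B cells carry a membrane antibody as their receptor and, after activation, become plasma cells that secrete it. Each antibody joins 2 kinds of chain. A heavy chain, whose constant part (Ighm for IgM, Ighd for IgD, Ighg genes for IgG, Igha for IgA) sets the class, pairs with a kappa (Igkc) or lambda light chain. The variable part of each chain is read from 1 of many V genes, which differs from one B cell clone to the next. The receptor signals through CD79A and CD79B, while the J chain links secreted IgM and IgA into polymers. In the heart, B cells are known mainly from the blood vessels, the interstitium and the pericardial fat.

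FPKM counts sequenced fragments per kilobase of a gene's exons after scaling for library size, which allows comparison between genes. These values also carry a further scaling between libraries, whose basis is not given, and comparisons between libraries rest on it. The read number behind a value was recovered from the steps between FPKM values, and it totalled 13076772 to 15574914 per Chow library and 13461734 to 16027084 per HFpEF library. All 8 ventricular cardiomyocyte markers were abundant in every library, so each held heart muscle transcripts. Their summed FPKM was 15123 to 16643 in Chow and 7235 to 11367 in HFpEF, lowest in HFpEF 3 at 0.456 times the Chow mean. HFpEF 3 stood apart, with 7.17% of its reads on mitochondrially encoded genes against 20.1% to 26.0% in the other libraries, and it was the highest library for 30.5% of the 14225 genes that were abundant enough to test. The corresponding share was 11.9% for HFpEF 2.

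The immunoglobulin genes were far higher in HFpEF 2 than in any other heart. Ighm had an FPKM of 6.67, 9.04 and 5.09 in Chow 1, 2 and 3 and of 6.70, 83.0 and 13.2 in HFpEF 1, 2 and 3. HFpEF 2 was thus 12.0 times the Chow mean, HFpEF 3 was 1.90 times that mean, and HFpEF 1 lay within the Chow range. The mean was 34.3 ± 42.3 (SD, n = 3) in HFpEF and 6.93 ± 1.99 (SD, n = 3) in Chow, a ratio of 4.95, with an HFpEF SD larger than the HFpEF mean. Ighm is located at chr12:113418558-113422730, minus strand (GRCm38). The values rest on 116 to 200 reads in Chow and on 175, 2653 and 480 reads in HFpEF. Membrane and secreted IgM come from the same gene and were not separated by these counts.

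Igkc, the constant gene of the kappa light chain, showed the same order of HFpEF libraries with a larger range. Igkc had an FPKM of 3.70, 6.09 and 4.51 in Chow 1, 2 and 3 and of 3.26, 152 and 16.0 in HFpEF 1, 2 and 3. Relative to the Chow mean of 4.76 ± 1.22 (SD, n = 3), HFpEF 2 was 31.9 times and HFpEF 3 was 3.35 times as high, while HFpEF 1 was the lowest library of all 6. Read numbers were 28, 38 and 29 in Chow and 24, 1369 and 164 in HFpEF. Igkc is located at chr6:70726435-70726966, plus strand, and none of the 8 genes shares exon bases with another annotated gene. The ratio of Ighm to Igkc FPKM was 1.80, 1.48 and 1.13 in Chow 1, 2 and 3 and 2.06, 0.547 and 0.826 in HFpEF 1, 2 and 3, so kappa exceeded Ighm only in HFpEF 2 and HFpEF 3.

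Jchain, which encodes the J chain of polymeric IgM and IgA, gave the same order of HFpEF libraries as Igkc. Among the Chow libraries, Chow 2 was highest for both, and Chow 1 and Chow 3 came in opposite orders. Jchain had an FPKM of 0.279, 0.305 and 0.197 in Chow 1, 2 and 3 and of 0.115, 6.35 and 0.782 in HFpEF 1, 2 and 3. HFpEF 2, with 271 reads, was 24.4 times the Chow mean, and HFpEF 3, with 38 reads, was 3.00 times that mean. HFpEF 1 was again the lowest library, on 4 reads, against 6 to 10 reads in Chow. As a share of Ighm FPKM, Jchain was 4.19%, 3.37% and 3.88% in Chow 1, 2 and 3 and 1.71%, 7.65% and 5.93% in HFpEF 1, 2 and 3. Jchain is located at chr5:88519809-88527891, minus strand.

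Ighd, the constant gene of IgD, which marks mature B cells that have not switched class, gave another order. Ighd had an FPKM of 0.407, 1.75 and 0.305 in Chow 1, 2 and 3 and of 0.304, 4.26 and 0.300 in HFpEF 1, 2 and 3. HFpEF 2 was the highest library and Chow 2 the second, while Chow 3, HFpEF 1 and HFpEF 3 were at nearly the same low level, on 7, 8 and 11 reads. HFpEF 2 had 5.19 times the Chow mean, on 137 reads, a smaller multiple than for Ighm, Igkc or Jchain. Relative to Ighm, Ighd FPKM was 19.4% in Chow 2, 2.27% in HFpEF 3 and 4.54% to 6.10% in the other 4 libraries. Ighd is located at chr12:113406604-113416324, minus strand, beside Ighm.

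**Figure D1:**
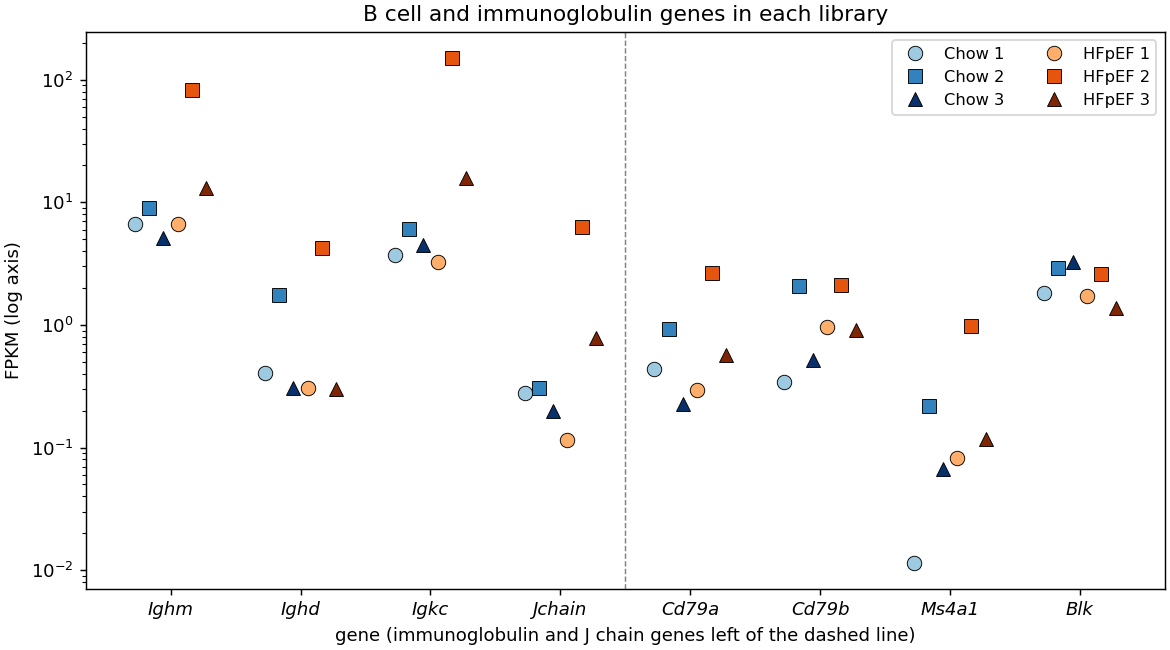
FPKM (log axis) of the 8 genes in each of the 6 libraries, with Chow in blue, HFpEF in orange and brown, and 1 symbol per library. HFpEF 2 is the highest library for 7 of the 8 genes, HFpEF 3 is the second highest for Ighm, Igkc and Jchain, and HFpEF 1 lies among or under the Chow libraries.

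Cd79a, Cd79b and Ms4a1 were also highest in HFpEF 2, by smaller multiples than Ighm, Igkc and Jchain, and like Ighd they did not share the intermediate level of those 3 genes in HFpEF 3. Cd79a, which encodes the Igα signalling chain of the B cell receptor, had an FPKM of 0.434, 0.936 and 0.227 in Chow 1, 2 and 3 and of 0.297, 2.63 and 0.568 in HFpEF 1, 2 and 3. HFpEF 2 was 4.95 times the Chow mean, whereas HFpEF 3 was 1.07 times that mean and lay under Chow 2. The values rest on 4 to 16 reads per Chow library and 6, 65 and 16 reads in HFpEF. Cd79a is located at chr7:24897381-24902197, plus strand. Igkc FPKM was 57.7 times that of Cd79a in HFpEF 2 and 28.1 times in HFpEF 3, against 6.50 to 19.9 times in the 3 Chow libraries and 11.0 times in HFpEF 1.

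Cd79b, the Igβ partner of CD79A, did not separate the hearts in the same way. Cd79b had an FPKM of 0.344, 2.08 and 0.520 in Chow 1, 2 and 3 and of 0.959, 2.10 and 0.904 in HFpEF 1, 2 and 3. Chow 2 (35 reads) and HFpEF 2 (51 reads) differed by less than the counting error of either, with 95% exact Poisson intervals of 1.45 to 2.90 and 1.57 to 2.77. The mean was 1.32 ± 0.677 (SD, n = 3) in HFpEF and 0.983 ± 0.958 (SD, n = 3) in Chow, a difference smaller than either SD. Cd79b is located at chr11:106311341-106314762, minus strand. Such intervals and all limits given below cover counting error only.

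Ms4a1, which encodes the B cell antigen CD20, is lost by plasma cells and so marks B cells before that stage. Ms4a1 had an FPKM of 0.0114, 0.220 and 0.0668 in Chow 1, 2 and 3 and of 0.0817, 0.973 and 0.117 in HFpEF 1, 2 and 3. HFpEF 2, on 102 reads, was 9.78 times the Chow mean, HFpEF 3 was 1.18 times it, and Chow 2 was the second highest library. Chow 1 rests on 1 read. The gene is located at chr19:11249675-11266241, minus strand.

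Blk, a Src family kinase of the B cell receptor pathway, did not follow any of the other 7 genes. Blk had an FPKM of 1.82, 2.91 and 3.28 in Chow 1, 2 and 3 and of 1.71, 2.63 and 1.38 in HFpEF 1, 2 and 3. Its highest library was Chow 3 and its lowest HFpEF 3, and HFpEF 2 was 0.984 times the Chow mean. The mean was 1.91 ± 0.644 (SD, n = 3) in HFpEF and 2.67 ± 0.757 (SD, n = 3) in Chow. With 64 to 120 reads per library, Blk exceeded Cd79a and Ms4a1 in FPKM in 5 and 6 of the 6 libraries, respectively. Blk is located at chr14:63372836-63417037, minus strand.

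Of the 8 genes, 7 had a higher mean in HFpEF, and in 0 of the 8 did all 3 HFpEF libraries exceed the highest Chow library, a pattern that 15.6% of the 14225 tested genes showed. HFpEF 1 was under the Chow mean for all 8 genes. Over Ighm, Ighd, Igkc and Jchain, the median ratio to the Chow mean was 0.562, 18.2 and 2.45 in HFpEF 1, 2 and 3. For Cd79a, Cd79b, Ms4a1 and Blk it was 0.731, 3.54 and 0.994. Cd79a and Ms4a1 therefore shared the peak in HFpEF 2, whereas Cd79b was at nearly the same level in HFpEF 2 and Chow 2. None of Cd79a, Cd79b, Ms4a1 and Ighd shared the intermediate level in HFpEF 3 of Ighm, Igkc and Jchain. In Chow, 7 of the 8 genes were highest in Chow 2, with ratios to the Chow mean of 2.13 for Ighd, 2.12 for Cd79b and 2.21 for Ms4a1 against 1.30 for Ighm and 1.28 for Igkc. In bulk tissue, a higher number of B lineage cells and more RNA per cell cannot be told apart.

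On the log2(FPKM + 0.1) scale, the median difference between HFpEF and Chow over the 8 genes was 0.80, against a median of −0.01 over all tested genes. The difference was 2.08 for Igkc, 1.58 for Jchain, 1.51 for Ighm, 0.94 for Ms4a1, 0.67 for Cd79a, 0.65 for Cd79b, 0.30 for Ighd and −0.47 for Blk. Without HFpEF 2 the median was 0.21, Igkc had 0.62, Ighm 0.47, Jchain 0.28, Cd79b 0.29 and Ms4a1 0.13, and Cd79a (−0.14) and Ighd (−0.85) turned to the opposite direction. Without Chow 2 the median was 1.35. The log2 scale with its pseudocount understates changes of genes with low FPKM.

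The regions upstream of 2 of the genes, Jchain and Cd79a, are shown because only these 2 matched the RefSeq promoters used. Any link between the windows and the levels of the genes was not tested. Both windows are from RefSeq (GRCm38.p6) and end before the first annotated exon. Capitals mark matches on either strand to the E-box CANNTG, bound by E2A among others, or to GAGGAA, the core of sites for PU.1 and related ETS factors.
Jchain, chr5:88527898-88528147, minus strand: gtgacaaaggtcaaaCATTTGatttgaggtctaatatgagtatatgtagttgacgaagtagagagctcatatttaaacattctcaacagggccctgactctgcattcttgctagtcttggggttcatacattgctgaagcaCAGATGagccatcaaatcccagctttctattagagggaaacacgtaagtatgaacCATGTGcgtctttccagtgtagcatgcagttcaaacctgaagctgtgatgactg
Cd79a, chr7:24897247-24897380, plus strand: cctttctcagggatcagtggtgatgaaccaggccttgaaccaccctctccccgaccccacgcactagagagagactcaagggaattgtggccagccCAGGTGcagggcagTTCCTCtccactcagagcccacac
The Jchain window of 250 bases held 3 E-boxes and 0 GAGGAA cores, which 66.2% and 23.3% of all 32851 RefSeq promoters hold in the same window. The Cd79a window of 134 bases held 1 of each, against 45.4% and 13.3% of promoters. Its E-box and GAGGAA core lay 154 and 140 bases before the RefSeq start, and the Jchain E-boxes lay 235, 109 and 54 bases before it. The Cd79a window ended at the first annotated exon, short of the RefSeq start. The 2 windows thus cover different positions, and their counts are not directly comparable. Neither window held the exact letters CCCNNGGG, a core searched for early B cell factor, or ATGCAAAT, the octamer of immunoglobulin promoters. Sites that depart from these letters were not searched, so the search cannot tell whether either window holds a site for these factors. None of the matches overlapped another. A match is a description of the letters and no measurement of binding.

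The V genes gave a view of the same antibodies that is separate from the constant genes. The table holds 113 heavy, 100 kappa and 3 lambda V genes and, with 2 named only by clone, 218 annotated immunoglobulin V genes in all. Heavy V genes together had 2, 6 and 8 reads in Chow 1, 2 and 3 and 0, 215 and 33 reads in HFpEF 1, 2 and 3. Kappa V genes had 3, 6 and 2 reads in Chow 1, 2 and 3 and 0, 360 and 19 reads in HFpEF 1, 2 and 3. As for Igkc and Jchain, HFpEF 2 was highest, HFpEF 3 next and HFpEF 1 lowest of all libraries, while the order among the Chow libraries differed between these genes. Reads fell on 71 V genes in HFpEF 2, 16 in HFpEF 3, 0 in HFpEF 1 and 6 to 13 in Chow.

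Of all reads on heavy V and constant genes, V genes took 6.22% in HFpEF 2 (95% Wilson interval 5.46% to 7.07%) and 4.58% in HFpEF 3 (3.28% to 6.37%). In Chow the share was 0.627% (0.172% to 2.26%), 1.61% (0.741% to 3.47%) and 3.38% (1.72% to 6.52%). HFpEF 1 had 0 V reads beside 336 heavy constant reads, which allows a share of up to 0.893% by the limit of 3 counts for a count of 0, or 1.13% by the Wilson interval. That library thus held heavy constant reads at the level of Chow without a V read to go with them. Its Wilson interval overlapped those of Chow 1 and Chow 2, but not that of Chow 3. For kappa, the V share was 20.8% (19.0% to 22.8%) in HFpEF 2 and 10.4% (6.75% to 15.6%) in HFpEF 3. The 3 Chow libraries had 28 to 38 Igkc reads, and their shares of 9.68%, 13.6% and 6.45% have wide intervals that overlap those of both HFpEF 2 and HFpEF 3. HFpEF 1 had 0 V reads beside 24 Igkc reads, which allows a share of up to 12.5% by the limit of 3 counts, or 13.8% by the Wilson interval.

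**Figure D2:**
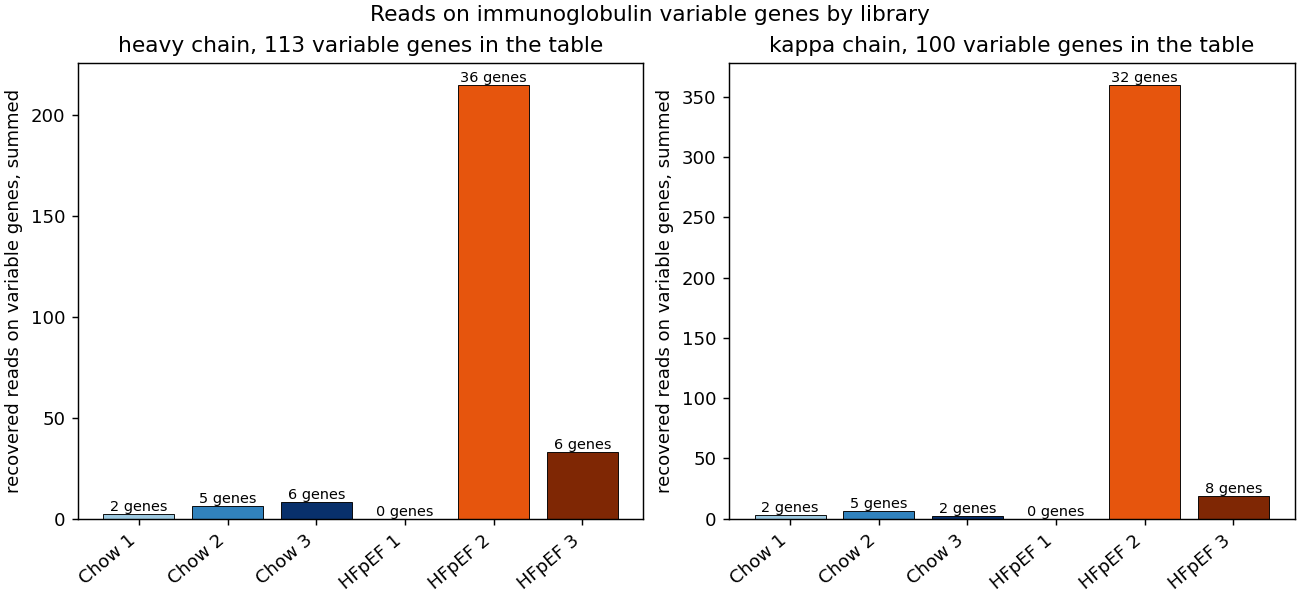
Recovered reads summed over heavy (left) and kappa (right) variable genes in each library, on linear axes from 0, with the number of variable genes that had reads above each bar. HFpEF 2 holds 215 heavy and 360 kappa reads over 36 and 32 genes, and no other library exceeds 33 and 19 reads.

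Which V genes were read differed between HFpEF 2 and HFpEF 3. The genes named here were chosen after their values were seen, from among those with the most reads. In HFpEF 2, kappa reads were led by Igkv14-126 (76 reads), followed by a gene of 55 reads that is labelled in the plot of single variable genes and by Igkv1-117 (41), Igkv1-110 (38) and Igkv16-104 (29), and the leading heavy genes were Ighv7-1 (42), Ighv2-9-1 (36) and Ighv11-2 (32). None of these 7 named genes had a read in any Chow library, and only Igkv1-117 had any in HFpEF 3, with 1. In HFpEF 3, Ighv1-4 took 18 of 33 heavy reads and Igkv4-72 took 10 of 19 kappa reads, and HFpEF 2 had 1 and 0 reads on them. Of the V genes with reads in HFpEF 2, 16.9% also had reads in HFpEF 3, and of those with reads in HFpEF 3, 75.0% also had reads in HFpEF 2. The most reads on any V gene in a Chow library was 4.

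**Figure D3:**
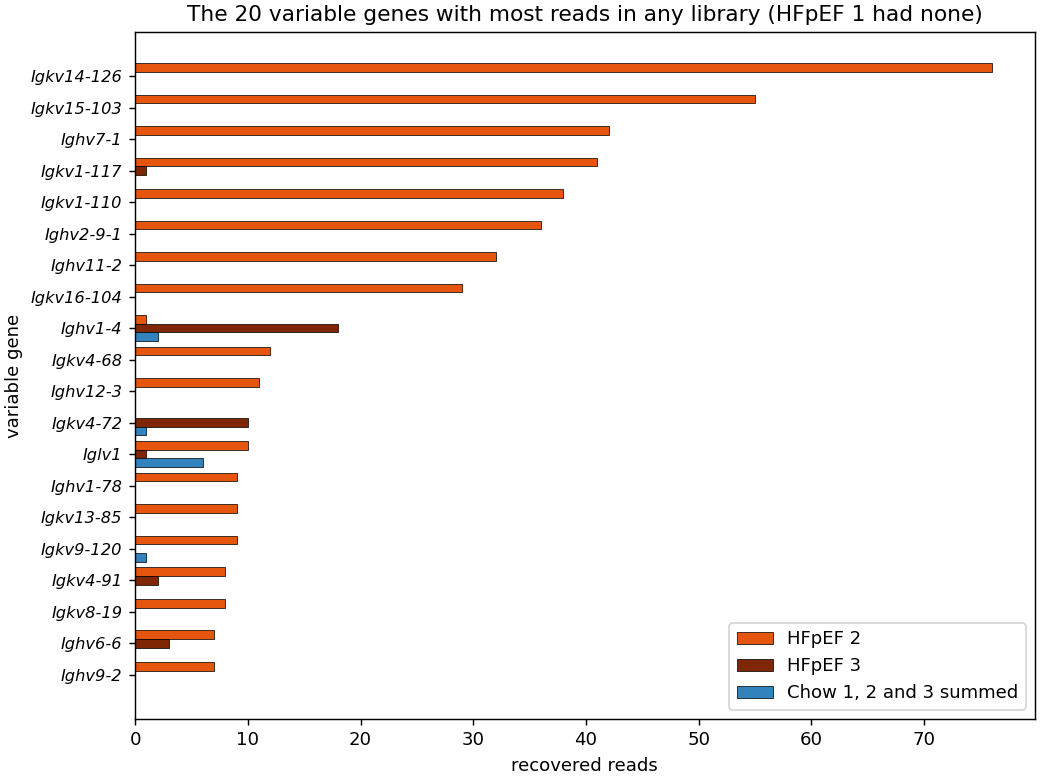
Recovered reads (linear axis from 0) on the 20 variable genes with the most reads in any library, for HFpEF 2, HFpEF 3 and the 3 Chow libraries summed. The longest bars belong to HFpEF 2, led by Igkv14-126 with 76 reads, while Ighv1-4 (18 reads) and Igkv4-72 (10 reads) stand out in HFpEF 3.

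The leading heavy and kappa V genes of HFpEF 2, and Ighv11-2, are given here as the last 240 bases of their V exon on GRCm38. Ighv11-2 is added as a chain of a pair named next, and it had fewer reads in HFpEF 2 (32) than Ighv2-9-1 (36). All were chosen after their values were seen. As background, Ighv11-2 with Igkv14-126, and Ighv12-3 with Igkv4-91, are the recurrent chain pairs of B-1 cells that bind phosphatidylcholine. Whether the reads came from the same cells is not measured here. Capitals mark the codons around the conserved cysteine near the 3′ end of the V exon, found as the letters TANTNNTGN.
Ighv7-1, chr12:113896408-113896647, minus strand: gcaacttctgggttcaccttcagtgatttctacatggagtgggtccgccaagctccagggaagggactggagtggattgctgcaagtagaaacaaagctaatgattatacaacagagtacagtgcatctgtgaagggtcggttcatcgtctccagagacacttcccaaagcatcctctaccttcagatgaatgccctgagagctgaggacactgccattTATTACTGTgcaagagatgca
Ighv11-2, chr12:114048241-114048480, minus strand: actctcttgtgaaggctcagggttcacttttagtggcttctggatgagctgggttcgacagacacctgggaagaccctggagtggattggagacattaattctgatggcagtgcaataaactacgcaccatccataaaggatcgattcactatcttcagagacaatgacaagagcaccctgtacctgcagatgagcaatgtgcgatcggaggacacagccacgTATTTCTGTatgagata
Igkv14-126, chr6:67896403-67896642, plus strand: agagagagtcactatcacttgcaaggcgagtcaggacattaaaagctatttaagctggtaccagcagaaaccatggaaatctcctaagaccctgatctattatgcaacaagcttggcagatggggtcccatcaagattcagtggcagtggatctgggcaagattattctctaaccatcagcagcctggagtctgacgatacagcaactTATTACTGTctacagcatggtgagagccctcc
V genes are near-identical to one another in places, so reads may be placed on a relative or left out. Of all 31-base words in the transcript, 5.79% for Igkv14-126, 6.01% for Ighv7-1 and 50.6% for Ighv11-2 also occur in another V gene, which makes the Ighv11-2 count uncertain. The shares were higher still for Igkv1-110 (63.6%), Igkv1-117 (62.6%) and the genes that led in HFpEF 3, Igkv4-72 (57.5%) and Ighv1-4 (54.5%), so these counts are uncertain as well. Ighv12-3 had 11 reads and Igkv4-91 had 8 in HFpEF 2, with 2.17% and 11.0% of words shared. In HFpEF 3, Igkv4-91 had 2 reads and Ighv12-3 had 0.

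The antibody classes differed between libraries along with the level. Over the summed FPKM of the heavy constant genes, Ighm took 51.5%, 51.1% and 45.7% in Chow 1, 2 and 3 and 45.6%, 82.4% and 71.6% in HFpEF 1, 2 and 3. Ighg2c, a constant gene of IgG, took 32.0% to 43.7% in Chow, 47.9% in HFpEF 1, 6.63% in HFpEF 2 and 12.1% in HFpEF 3. The level of Ighg2c itself did not follow Ighm: its FPKM was 5.03, 5.66 and 4.86 in Chow 1, 2 and 3 and 7.03, 6.68 and 2.23 in HFpEF 1, 2 and 3 (log2 difference −0.13, standard error 0.42, adjusted p = 0.869 from limma). HFpEF 1, which had no V reads, held the highest Ighg2c value.

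Other constant genes were highest in HFpEF 2. Igha, for IgA, had an FPKM of 0.526, 1.18 and 0.868 in Chow 1, 2 and 3 and of 0.623, 4.62 and 2.60 in HFpEF 1, 2 and 3, so HFpEF 3 was also above every Chow library (log2 difference 1.19, standard error 0.69, adjusted p = 0.328 from limma). Ighg3 had 33 reads in HFpEF 2 and 0 in each of the other 5 libraries. Ighg2b had 58 reads in HFpEF 2 against 12, 2 and 0 in Chow 1, 2 and 3, 1 in HFpEF 1 and 5 in HFpEF 3. Ighg1 had reads in HFpEF 2 alone, 3 in number, which is at the limit of detection used here, and Ighe had 0 reads throughout. The lambda constant genes together had 60 reads in HFpEF 2, 9 in HFpEF 3 and 2 to 5 in the other libraries, and kappa took 86.4% to 95.7% of light chain constant FPKM across the libraries.

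**Figure D4:**
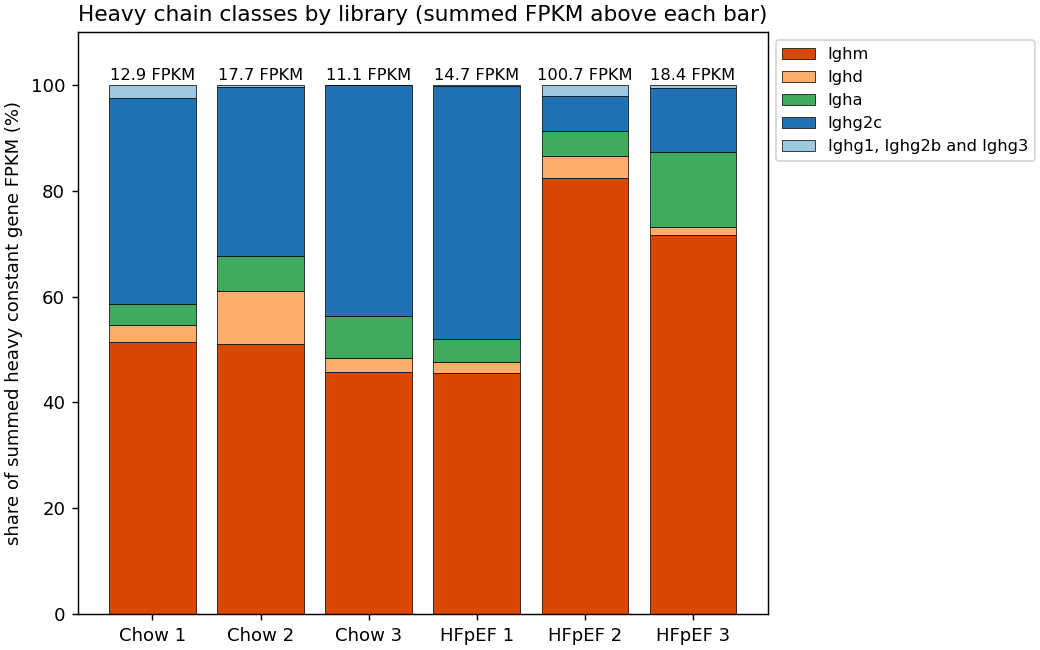
Share of summed heavy constant gene FPKM taken by each class in each library, as stacked bars that add to 100%, with the summed FPKM above each bar. Ighm takes 82.4% in HFpEF 2 and 71.6% in HFpEF 3 against 45.6% to 51.5% in the other 4 libraries. Ighg2c is the second largest class in every Chow library and the largest in HFpEF 1, at 47.9%.

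Genes of the B lineage outside the 8 were compared between groups with limma, over 70 identifiers in 6 lists, of which 34 were abundant enough to test (FPKM reaching 0.5 in 3 or more of the libraries). In all, 0 of the 34 had a Benjamini-Hochberg adjusted p under 0.05 (limma), against 0.0914% of all tested genes called higher. At an unadjusted p under 0.05, 8 of the 34 were higher and 0 lower, against 10.2% of all tested genes called higher. With voom on the recovered reads, 0 passed the adjusted p and 9 the unadjusted p. The median log2 difference of the 34 genes was 0.50, with 27 above 0, and for 10 of them all HFpEF libraries exceeded the highest Chow library, beside 15.6% of all tested genes. The lowest adjusted p was 0.143, for Txndc5.

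The receptor and coreceptor list, which had 12 of 22 genes tested, held 2 with an unadjusted p under 0.05 and higher in HFpEF, Cd37 and Tnfrsf13b. Cd37 encodes a tetraspanin of B cells and other leukocytes (log2 difference 0.91, standard error 0.32, adjusted p = 0.174 from limma). Tnfrsf13b, for the APRIL and BAFF receptor TACI, had 0.95 (standard error 0.30, adjusted p = 0.150). Its FPKM was 0.437 to 0.571 in Chow and 0.738, 1.29 and 1.24 in HFpEF 1, 2 and 3, so the groups did not overlap. The most abundant genes of the list, Cd81, Lyn and Syk, are also expressed outside B cells and had adjusted p of 0.620, 0.458 and 0.250. Blnk, Btk, Cd72, Fcgr2b, Ltb, Lyn, Pik3ap1 and Plcg2 were all highest in HFpEF 3, with adjusted p from 0.244 to 0.673.

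The genes of this list that are restricted to B cells were mostly too low to test, and most of those named here were highest in HFpEF 2. Fcrl1, with 16 reads in HFpEF 2 and 22 in HFpEF 3, was an exception. Cd22, an inhibitory receptor, was also high in HFpEF 3, with FPKM of 0.784 in HFpEF 2, 0.585 in HFpEF 3, 0.406 in Chow 2 and at most 0.0492 in the other 3 libraries. Fcmr, the IgM Fc receptor, had 19 reads in HFpEF 2, 11 in Chow 2, 0 in HFpEF 1 and 1 in HFpEF 3. Fcrla had 23 reads in HFpEF 2 and 12 in Chow 2, Fcer2a (CD23) 38 and 11, and Bank1 83 and 25. In total, 11 of the 22 genes were highest in HFpEF 2 and 10 in HFpEF 3, and none in a Chow library.

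Of the 12 transcription factors, 4 were highest in HFpEF 2, with Pax5, Pou2af1 and Spib among them, and 5 were highest in HFpEF 3. Pax5, which keeps B cell identity and is switched off in plasma cells, had 3, 18 and 1 reads in Chow 1, 2 and 3 and 9, 56 and 3 in HFpEF 1, 2 and 3. Pou2af1, the coactivator OCA-B of octamer promoters, had 28 reads in HFpEF 2 and 0 to 8 in the other libraries. Spib, an ETS factor of B cells and plasmacytoid dendritic cells, had 1, 0 and 0 reads in Chow 1, 2 and 3 and 3, 68 and 23 in HFpEF 1, 2 and 3. Spib and Igha were thus above every Chow library in both HFpEF 2 and HFpEF 3, whereas the highest libraries for Pax5 were HFpEF 2 and Chow 2. Ikzf1, expressed across lymphoid and myeloid cells, had a log2 difference of 1.16 (standard error 0.37, adjusted p = 0.153 from limma), and Pou2f2, which was not tested, was highest in HFpEF 3. Ebf1, Foxo1, Tcf3, Irf8 and Bach2, which other heart cells also express, had adjusted p from 0.260 to 0.767.

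The plasma cell list had 10 of 12 genes tested, and 5 had an unadjusted p under 0.05 and were higher in HFpEF. They were Txndc5 (log2 difference 0.85, standard error 0.25, adjusted p = 0.143 from limma), Sdc1 (1.43, 0.45 and 0.152), Irf4 (1.04, 0.38 and 0.181), Xbp1 (0.33, 0.14 and 0.210) and Mzb1 (1.01, 0.42 and 0.212). Mzb1, a chaperone needed for IgM assembly and secretion, had an FPKM of 0.776, 0.942 and 1.92 in Chow 1, 2 and 3 and of 1.92, 3.91 and 1.77 in HFpEF 1, 2 and 3. Its highest library was HFpEF 2, while Chow 3, HFpEF 1 and HFpEF 3 were at nearly 1 level. Sdc1 (CD138) and Txndc5, which have other sources in the heart, were highest in HFpEF 3, with Sdc1 at 16.9 FPKM there against 2.64 to 3.04 in Chow. Tnfrsf17, for the plasma cell receptor BCMA, had 0 to 4 reads per library and was lower in HFpEF 2 (1 read) than in Chow 1 (4 reads). Cd38, Fkbp11, Pim2, Prdm1 and Slamf7 had adjusted p from 0.261 to 0.825.

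Genes of precursor and germinal centre B cells were at or near 0 reads or are also expressed by other cells. Rag2, Igll1 and Vpreb2 had 0 reads in every library. Mef2b, a germinal centre transcription factor gene, had 11 reads in HFpEF 2 and 0 to 3 in the other libraries. In the precursor list only Erg, an endothelial gene as well, was tested (adjusted p = 0.307). In the germinal centre list, Fas, Bcl6 and S1pr2 were tested, all expressed outside B cells, and had adjusted p of 0.533, 0.721 and 0.221 (limma).

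Cxcl13, the chemokine that draws B cells into lymphoid clusters, had another order of libraries. It had an FPKM of 0.0611, 0 and 0 in Chow 1, 2 and 3 and of 2.83, 4.36 and 0.495 in HFpEF 1, 2 and 3. HFpEF 1, with 45 reads of Cxcl13, was the library with no V reads. In its list of survival and homing ligands, 5 of 14 identifiers were tested and 0 had an adjusted p under 0.05 (limma), with 1 at an unadjusted p under 0.05. The BAFF gene Tnfsf13b and the APRIL gene Tnfsf13 had log2 differences of 0.50 and −0.50 (adjusted p = 0.411 and 0.424).

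The 5 tested genes with library patterns nearest to that of Igkc, by the distance between centred log2(FPKM + 0.1) values over the 6 libraries, were Il18r1 (distance 2.37), Msln (2.41), Igha (2.43), the small nucleolar RNA gene Gm25632 (2.44) and the complement gene C2 (2.62). Msln, which encodes mesothelin of the mesothelium that covers the heart, had an FPKM of 8.50, 7.30 and 8.96 in Chow 1, 2 and 3 and of 10.2, 56.0 and 25.6 in HFpEF 1, 2 and 3. After this value was seen, 10 mesothelial genes were listed, Msln among them. All 10 were highest in HFpEF 2, at 3.05 to 7.88 times the Chow mean, and all 10 were lowest in Chow 2. The mesothelial genes thus moved with the B cell genes in HFpEF 2 and against Ms4a1, Cd79a and Ighd in Chow 2, and their part in the result was not tested. The genes nearest to Cd79a, namely Spata46, Gm23608, Rpl30-ps8, Tm4sf5 and Sox6os, had at most 47 reads per library, and their distances of 1.09 to 1.33 are of limited precision.

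Markers of other blood and tissue cells had their own library orders. Macrophage, T and NK cell, MHC class II and pan-leukocyte genes were highest in HFpEF 3, with median log2 differences from the Chow mean of 1.39, 1.46, 1.21 and 1.98 there and 0.69, 0.77, 0.98 and 0.84 in HFpEF 2. The 4 immunoglobulin and J chain genes had 1.13 in HFpEF 3 and 3.89 in HFpEF 2, so their order was the reverse. Erythroid genes, a sign of blood in the sample, had a summed FPKM of 1591 in Chow 2 and 1813 in HFpEF 1 against 280 to 585 in the other 4 libraries. Chow 2 was also the Chow library with the highest B cell surface genes, and HFpEF 1 had levels under the Chow mean. Adipocyte genes were listed at 0 in 2 Chow libraries, with a summed FPKM of 0.0481 in Chow 2, and at 89.3, 88.2 and 36.6 in HFpEF 1, 2 and 3. Of the 5 tested adipocyte genes, 4 were called higher in HFpEF (Cfd, Car3, Cidec and Adipoq, adjusted p from 9.49e-05 to 0.0334, limma). Adipocyte levels were nearly equal in HFpEF 1 and HFpEF 2, the lowest and the highest HFpEF library for Igkc. Neutrophil, dendritic cell, platelet and lymphoid stroma lists had 0 genes with an adjusted p under 0.05 among 2, 3, 4 and 4 tested (limma). The parts of these cell types in the B cell result were not tested.

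**Figure D5:**
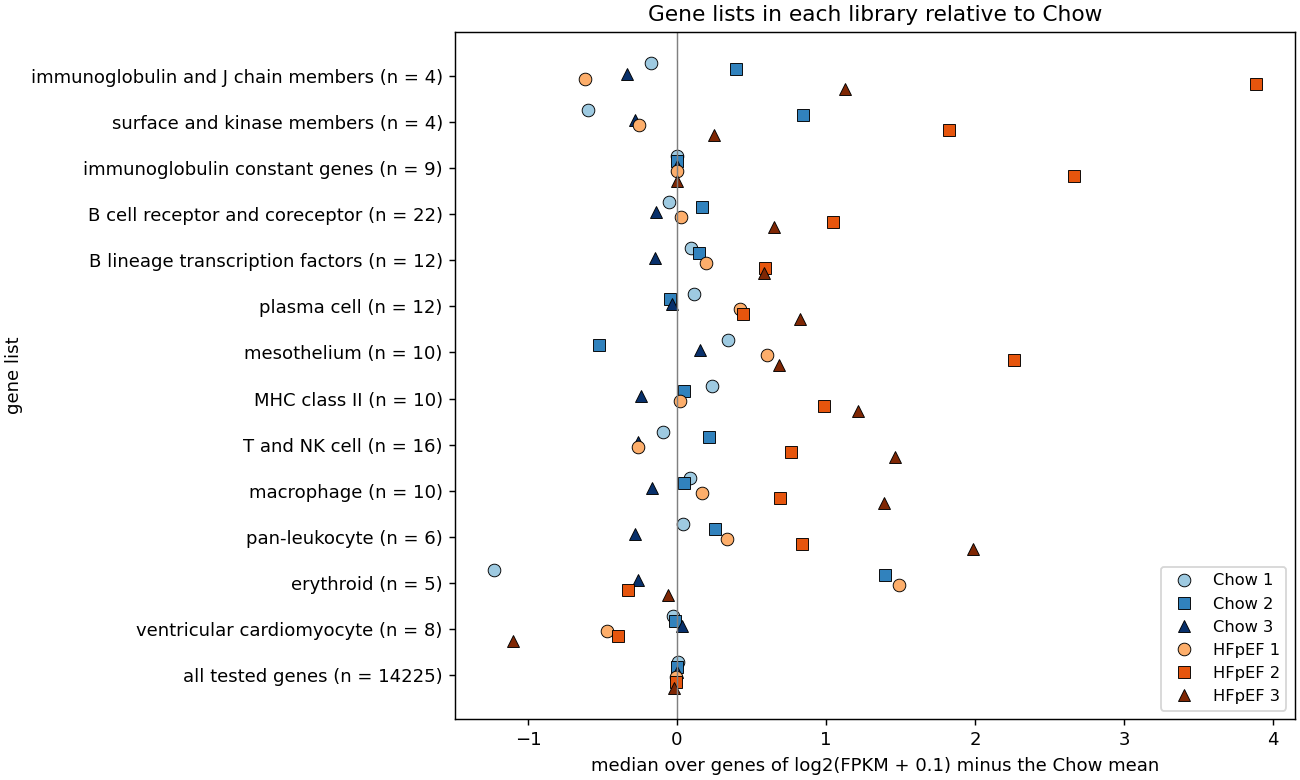
Median over each gene list of log2(FPKM + 0.1) minus the Chow mean of the gene, for each library, with 1 symbol per library and the number of genes beside each list. HFpEF 2 is farthest right for the immunoglobulin, B cell surface, B cell receptor and mesothelial lists. HFpEF 3 is farthest right for the macrophage, MHC class II, T and NK cell and pan-leukocyte lists. It is also farthest right for the plasma cell list (0.828 against 0.441 in HFpEF 2). The transcription factor list is nearly equal in HFpEF 2 (0.593) and HFpEF 3 (0.585), and all libraries lie near 0 over all 14225 tested genes.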

How the data were processed

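The authors sequenced left ventricular RNA from 3 Chow and 3 HFpEF mice, used HISAT2 for alignment and featureCounts for gene counts, and deposited FPKM values. The submitters' processing notes name GRCm38 and mm10, and the annotation is not given in the sources used here. Deposited FPKM multiplied by GENCODE M21 exon length gave whole multiples of 1 step for 96.1% to 96.2% of values above 0 per library (relative tolerance 1e-06), from which reads were recovered. The library sizes implied by the steps, 11734336 to 19316914, differ from the summed reads, so the FPKM carry a further scaling between libraries. How the counting treated strand and multiply mapped reads is not given in the sources used here.

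Libraries were rescaled by median-of-ratios factors (1.00 to 1.01), and log2(FPKM + 0.1) was fitted with limma 3.58.1 in R 4.3.3 (eBayes with trend and robust options) over 14225 genes that reached an FPKM of 0.5 in 3 libraries. The fit was tested on simulated data. Benjamini-Hochberg adjusted p was taken over all tested genes, and under 0.05 counted as called. Among the 8 genes, Ighd, Jchain and Ms4a1 were under the minimum, and Ighm, Igkc, Cd79a, Cd79b and Blk passed it. DEGs also needed an absolute log2 difference of at least 2, and 8 genes were higher and 0 lower (with limma at an unadjusted p under 0.05 and that fold, 86 and 23, and with voom 0 and 0). Lists were written by hand. The 8 genes and the lists were chosen with earlier results of these data known. Named genes were the 8, B lineage list genes that reached an FPKM of 0.5 in a library, called or abundant genes of each list, and the 5 nearest profiles of Igkc and of Cd79a. Other named genes, the V genes and the mesothelial list were chosen after their values were seen. Alternatives were the deposited scaling, quantile normalization, other pseudocounts (1 and 0.01), a stricter FPKM minimum (1) or none, plain eBayes, voom on recovered reads, the replicate number as a block and each library left out. Motif and sequence counts used Python 3.11.15 and the RefSeq promoter table, which matched Cd79a and Jchain, and exon sequences of GENCODE. Results for some of the list genes are not reported here.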

Additional observations from a re-analysis of the deposited data

How the results depend on the processing

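The direction of the 8 genes held under the alternatives run for them, except in 3 cases: Cd79a turned to −0.14 and Ighd to −0.85 (log2 difference) without HFpEF replicate 2, and Ighd to −0.12 without Chow replicate 3. Voom did not cover Ighd, Jchain and Ms4a1, and the direction was not read under other FPKM minimums or plain eBayes. The median over the 8 genes, 0.80, ranged from 0.21 to 1.35 when each library was left out, and was 0.33 and 1.14 with pseudocounts of 1 and 0.01, 0.58 after quantile normalization and 0.75 with voom over the 5 genes tested. Of the B lineage genes outside the 8, none was called (limma) in any other fit run, but 2 were higher without HFpEF replicate 3 (Sdc1 and Txndc5), and 0 to 2 over all libraries left out. At an unadjusted p under 0.05, 8 were higher.

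DEGs over all genes, 8 higher and 0 lower, numbered 2 higher with a pseudocount of 1, 3 with 0.01, 5 at an FPKM minimum of 1, 15 higher and 4 lower with plain eBayes, 0 with voom, and 86 higher and 23 lower with an unadjusted p. Quantile normalization and no filter each gave 1 lower. Leaving out a library gave 2 to 47 higher and 0 to 12 lower, with 47 and 12 without HFpEF replicate 3 and 23 and 1 without HFpEF replicate 2. With the replicate block 2 were higher and 0 B lineage genes were called. Same-numbered libraries did not deviate together (correlations −0.04, −0.07 and −0.06), so the numbers gave no pairing. Groups of 3 were too small for a test of single outlying libraries. Depth limits the low genes, with 1 to 16 reads of Ms4a1, 6 to 10 of Jchain and 4 to 16 of Cd79a per Chow library.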
